A study of Sus scrofa with 50 samples.

Results

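Liver and kidney of the same Korean minipigs were compared animal by animal. The comparison used 18 of the 50 bulk RNA-seq libraries of the series, 9 livers and 9 kidneys, chosen by their tissue label and paired by the animal code that both libraries carry. Korean minipigs are small pigs that the labels divide into an ET type and an L type. Of the pairs, 5 came from the L type (S0349, S0384, S0385, S0355 and S0377) and 4 from the ET type (S0309, S0242, S0326 and S0276), and the labels give no treatment, age or sex. RNA was extracted with TRIzol, and libraries were made with a stranded poly(A) kit. The tenth animal, S0235 (ET type), was left out because its kidney library held lymphoid transcripts: the B cell surface protein CD20 reached 119.5 TPM there and at most 0.153 TPM in the other 9 kidneys. Heart, lung and spleen of the same 9 animals, 27 libraries, served only to ask which transcripts liver and kidney share. Values are TPM, the length-corrected share of each library that a transcript takes, summed over all assembled transcripts whose best protein match was the same Swiss-Prot entry. Gene products are therefore called by entry name, and close relatives can be pooled under 1 name.

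The labels held against the defining markers of both organs. ALBU, serum albumin, lay between 55175 and 174596 TPM in the 9 livers (median 114907) and between 0.339 and 17.7 TPM in the 9 kidneys. UROM, uromodulin, the main protein of normal urine and a product of the thick ascending limb, lay between 229.6 and 5281 TPM in the kidneys (median 539.5) and reached at most 0.511 TPM in the livers. The organs did not overlap for either marker, but UROM differed widely between kidneys. ALBU alone made up 5.52% to 17.5% of liver TPM, and 10479 to 11318 entries reached 1 TPM in a liver against 11921 to 12567 in a kidney. Read depth is unknown, since TPM keeps no counts.

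The liver makes most plasma proteins, urea, bile acids and glycogen, and the kidney filters plasma and reclaims solutes along the nephron. Both are epithelial organs of metabolism: both make glucose, split fructose, break down amino acids and conjugate drugs. Many of these steps have more than 1 enzyme, made from separate genes, with different affinities or places in the cell.

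Of 12505 entries tested, 5036 (40.3%) differed between liver and kidney at a Benjamini-Hochberg adjusted p under 0.05 with at least a 2-fold difference (limma, animal as block): 1293 entries (10.3%) were higher in liver and 3743 (29.9%) were higher in kidney. The excess of kidney calls depended on scaling. On deposited TPM the median entry lay 0.51 lower in liver on the log2 scale, whereas after median-ratio rescaling it lay 0.06 higher and after quantile normalization 0.03 higher. Median-ratio rescaling gave 2198 entries higher in liver (17.7%) and 2226 in kidney (17.9%), and quantile normalization gave 2139 (17.1%) and 2284 (18.3%), so the share of calls in favour of liver moved from 25.7% to 49.7% and 48.4%. Every one of the 1293 liver calls and 2226 of the 3743 kidney calls were made again after median-ratio rescaling, and 0 calls turned direction. The factors that divided the libraries were 0.694 to 0.915 in livers and 0.955 to 1.72 in kidneys, so differences moved toward liver. The kept liver calls and the 0 reversals follow largely from that shift and are no separate test of the calls. In the accounts below a call refers to deposited TPM, and a gene whose stated call was lost under either rescaling is marked. Counts over gene lists stand beside 10.3% higher in liver and 29.9% higher in kidney over all entries (17.7% and 17.9% after median-ratio rescaling). Liver and kidney ranges did not overlap for 3583 of the 12505 entries (28.7%), the share that stands beside each non-overlap named in the text. Because these are pieces of whole tissue, fewer cells of a type and less RNA per cell cannot be told apart.

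**Figure D1:**
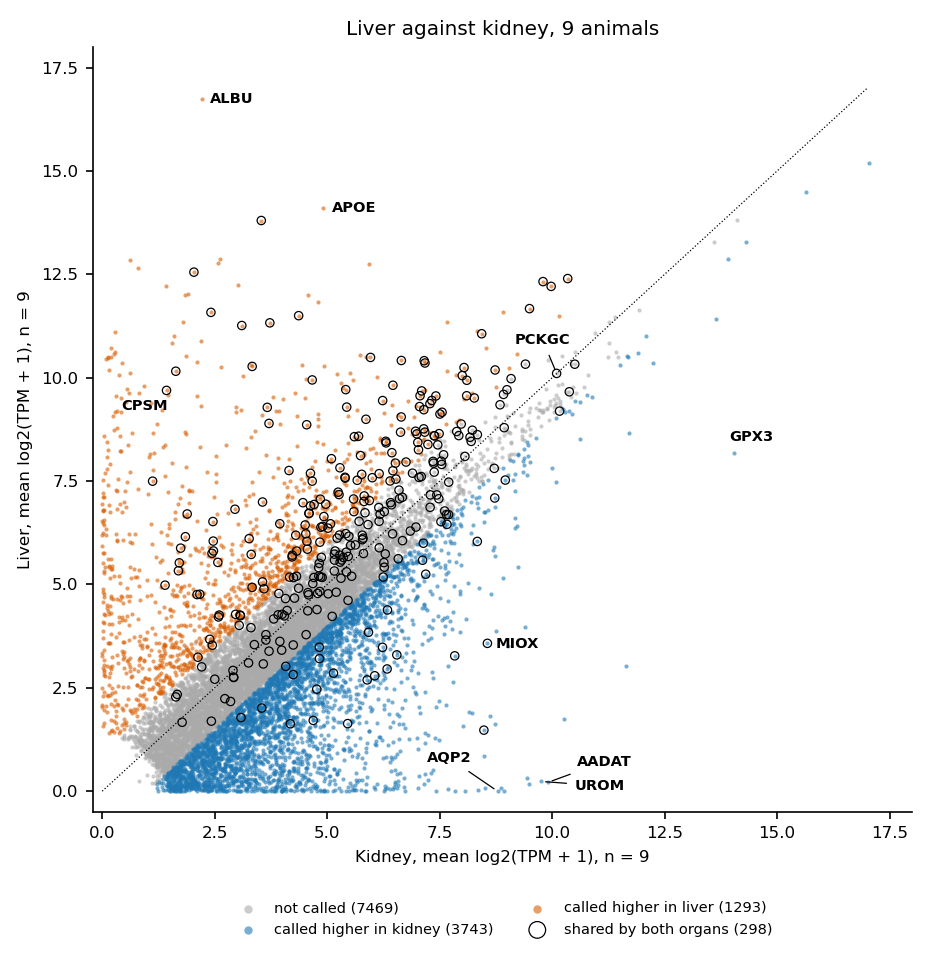
Mean level of each of the 12505 tested entries in 9 kidneys (x axis) and 9 livers (y axis), as log2(TPM + 1). Orange points were called higher in liver, blue points higher in kidney and grey points were not called, black rings mark the 298 entries shared by both organs, and named entries include ALBU (a log2 difference of 14.53) and AADAT (-9.70).

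The largest differences in favour of liver were all in secreted or drug-metabolizing proteins. ALBU led with a log2 difference of 14.53 ± 0.325 (SE, n = 9 pairs; adjusted p = 7.87e-13). APOH, a phospholipid-binding plasma glycoprotein, had 6257 to 10190 TPM in liver and at most 2.07 TPM in kidney, a log2 difference of 12.24 ± 0.220 (adjusted p = 1.32e-13). FIBA, the fibrinogen alpha chain, followed at 11.85, then the cytochrome P450 entry CP3AO at 10.81, the serpin SPA38 at 10.78, A1AT (alpha-1-antitrypsin) and APOC3 (a triglyceride-rich lipoprotein apolipoprotein) at 10.52 each, HP20 and SPP24 at 10.37 each, and A1BG at 10.36. All 10 were higher in liver in 9 of 9 animals, with no overlap between organs.

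The largest differences in favour of kidney spread over several parts of the nephron. AADAT, an aminotransferase that acts on alpha-aminoadipate and kynurenine, had 360.2 to 2423 TPM in the kidneys (median 1060) and 0.0399 to 0.347 TPM in the livers, a log2 difference of -9.70 ± 0.291 (adjusted p = 1.2e-11). UROM followed at -9.53, the proximal tubule amino acid transporter S6A18 at -9.31, the kallikrein entry KLK at -9.12, the urate transporter S22AC at -8.92, the phosphate transporter NPT2A at -8.80, the collecting duct water channel AQP2 at -8.79, the sodium pump gamma subunit ATNG at -8.62, PDZ1I, a small membrane protein that binds PDZ domains, at -8.51, and PODO (podocin, of the glomerular filter) at -8.44. All 10 were higher in kidney in 9 of 9 animals, with no overlap. An abundant kidney product was GPX3, the glutathione peroxidase of plasma, with 8233 to 31770 TPM in the kidneys and 56.4 to 1734 TPM in the livers, a log2 difference of -5.87 ± 0.434 (adjusted p = 7.89e-08).

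Cell markers followed the organs. All 25 plasma protein entries tested were higher in liver, with a median log2 difference of 8.88. Of 15 proximal tubule entries, 14 were higher in kidney, and the exception was the glucose transporter GTR2, higher in liver. All 8 entries of the loop of Henle and distal tubule and all 11 of the collecting duct were called higher in kidney, as were 7 of 9 podocyte entries. In the distal tubule, the sodium-chloride carrier S12A3 was not separated in the summed values: its call was lost under median-ratio rescaling (adjusted p = 0.0889), without the animal as block (0.0854), with S0235 kept (0.056), in the ET-type animals alone (0.217) and without S0309, S0355 or S0377 (0.072, 0.0714 and 0.0687). A transcript matching only 27 residues of the protein gave 206 to 1749 TPM in 6 of the livers, whereas the transcript matching all 1021 residues had 21.5 to 496 TPM in the kidneys and at most 0.032 TPM in the livers.

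Markers of other cells also moved with the organ. Of 10 macrophage entries, 5 were higher in liver and 0 in kidney, and their summed level ran from 306 to 1119 TPM in liver and from 94.2 to 674 TPM in kidney, highest in the kidney of S0276. Of 11 entries of vessels and stroma, 8 were higher in kidney, 5 after median-ratio rescaling, with sums of 62.7 to 233 TPM in liver and 322 to 1643 TPM in kidney. Of 6 entries tested on the lymphocyte list, 4 were higher in kidney (1 after median-ratio rescaling) and 1 in liver. The list's sums were 71.1 to 152 TPM in liver and 59.2 to 549 TPM in kidney, and CD20 was at 0 in 7 of the 9 kidneys. The 4 were CD2, CD79A and the chemokines CCL19 and CCL21, which do not mark lymphocytes themselves. CCL19 and CCL21 had 291 and 168 TPM in the kidney of S0276, where the sum was highest. The liver-high one was CD3Z, the zeta chain of the T cell receptor complex, with 29.0 to 96.2 TPM in liver and 4.37 to 22.8 TPM in kidney, while the epsilon chain CD3E had 0.387 to 2.76 TPM in liver and 1.61 to 12.8 TPM in kidney and was not called. Of 3 blood entries, 1 was higher in liver, the hemoglobin chain HBA (1.81, 7 of 9 animals), a call lost without S0309, S0326, S0349, S0377 or S0385 (adjusted p = 0.0547 to 0.0733), in the L-type animals alone (1.53, adjusted p = 0.207) or with the 10 highest units left out (adjusted p = 0.0514), with sums of 14.9 to 814.5 TPM in liver and 14.5 to 227 TPM in kidney. Of 7 matched markers of adrenal, fat, pancreas, gut and heart, 2 were tested, PLIN4 (higher in liver) and VILI (higher in kidney), and the sums were at most 59.4 TPM in either organ. The part of these cells in the organ differences was not tested.

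Liver and kidney shared 298 of 13647 entries (2.18%), counting an entry as shared when both organs exceeded each of heart, lung and spleen at least 2-fold (limma over 45 libraries, adjusted p under 0.05). Median-ratio rescaling gave 354 (2.62%), of which 273 were common. Of the 298, 135 were also higher in liver than in kidney, 30 were higher in kidney and 133 were not called between the organs, beside 10.3% and 29.9% of all entries; after median-ratio rescaling the first 2 counts were 190 and 20. The median log2 difference of the shared entries was 0.80 in favour of liver (1.43 rescaled), beside -0.51 for all entries. This list includes plasma proteins whose kidney level was low but above the other organs: APOC3 had 0.454 to 11.5 TPM in kidney against 3581 to 8464 TPM in liver.

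The most abundant shared entries were enzymes. CP2CN, a cytochrome P450 of the 2C subfamily, had 2661 to 10273 TPM in liver and 556 to 6084 TPM in kidney, while its mean was at most 1.71 TPM in heart, lung and spleen. The alcohol dehydrogenase ADH1E averaged 5094 TPM in liver and 1256 in kidney, the carboxylesterase EST1 5361 and 1075, and the urea cycle enzyme ASSY (argininosuccinate synthase) 4076 and 872. These 4 were each higher in liver, by log2 differences of 2.05 to 2.53. P20D1, an enzyme that joins fatty acids to amino acids, and ST2A1, a steroid sulfotransferase, averaged 823 and 771 TPM in liver and 1391 and 1363 TPM in kidney. Their log2 differences of -0.72 ± 0.189 (adjusted p = 0.00406) and -0.97 ± 0.345 (adjusted p = 0.0229) fell short of 2-fold on deposited TPM but not after quantile normalization (-1.31 and -1.62), and ST2A1 also reached 2-fold without S0326, S0349, S0377 or S0385 (-1.05 to -1.24). CP2CI, another P450 of the 2C subfamily, averaged 1876 TPM in liver and 664 in kidney, with overlapping ranges, and its call in favour of liver (1.46 ± 0.516, adjusted p = 0.0228) was lost after quantile normalization (0.95), without the animal as block (adjusted p = 0.122), in the L-type animals alone (0.402) and without S0309, S0326 or S0384 (0.058, 0.0561 and 0.056). The aldo-keto reductase DDBX averaged 1317 and 729 TPM and was called higher in liver after median-ratio rescaling (1.56, beside 0.92) and without S0385 (1.0).

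Some shared enzymes were at like levels in both organs. PCKGC, the cytosolic phosphoenolpyruvate carboxykinase of gluconeogenesis, had 399.8 to 1688 TPM in liver (median 1508) and 344 to 2203 TPM in kidney (median 1060). The ranges of the organs overlapped, and the 95% interval of its log2 difference was -0.64 to 0.65. An interval inside 2-fold was found for 66 of the 298 shared entries, beside 37.1% of all entries. With median-ratio rescaled intervals it was found for 42 of the same 298, beside 44.3% of all, of which 23 were common. Where the shared entries were themselves called after rescaling, 72 of 354 lay inside 2-fold, and after quantile normalization 83 of 328. Shared entries were thus less often inside 2-fold than entries in general, under both scalings. AGT1 (alanine-glyoxylate aminotransferase, which clears glyoxylate), KHK (ketohexokinase, the first step of fructose use) and NQO2 (a quinone reductase) stayed inside 2-fold under both scalings. AGT1 averaged 471 TPM in liver and 502 in kidney, KHK 152 and 162.6, and NQO2 281 and 285. PCKGC, the glucose 6-phosphate carrier G6PT1 and the epoxide hydrolase HYES were inside 2-fold on deposited TPM but not after median-ratio rescaling, and the same held for SDSL, ECHD2, IDHC (the cytosolic isocitrate dehydrogenase) and SPS2, of which SDSL, ECHD2 and SPS2 were then called higher in liver (1.14, 1.02 and 1.08).

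**Figure D2:**
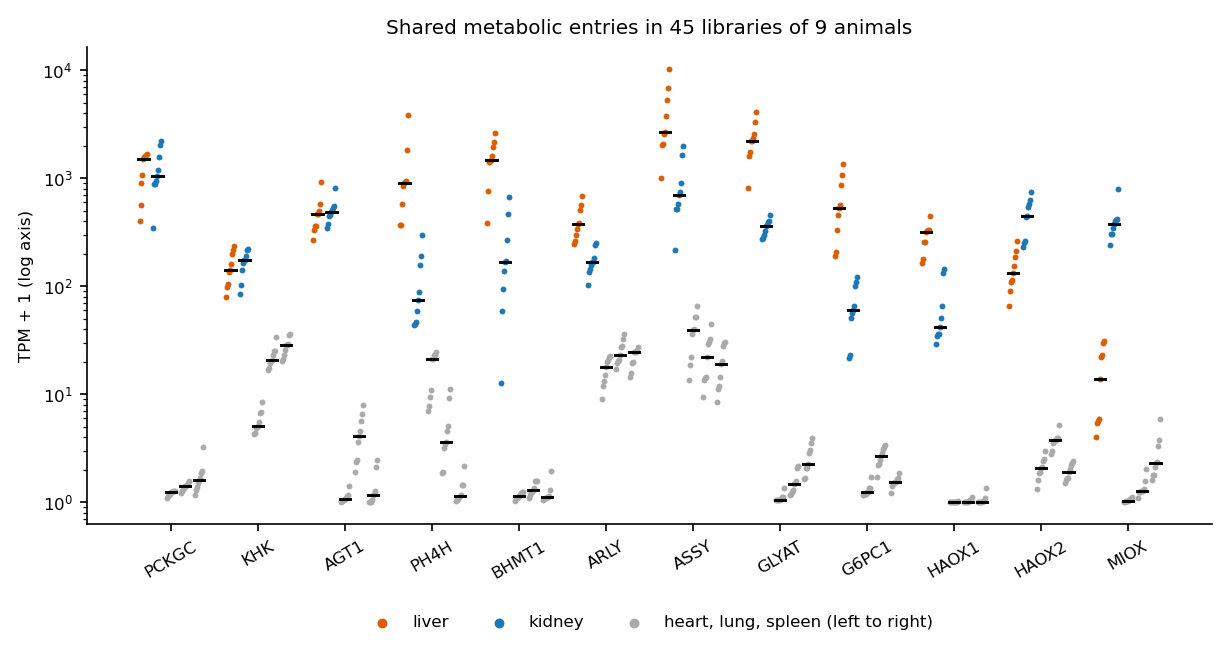
TPM of 12 shared metabolic entries in each of the 9 livers (orange), 9 kidneys (blue) and the same animals' hearts, lungs and spleens (grey), on a logarithmic axis of TPM + 1, with black bars at the group medians. Points of a group are ordered by value from left to right. Both organs lie above the grey points for these entries, except that the lowest MIOX livers (from 3.02 TPM) reach the level of the highest spleen, the liver and kidney medians lie close together for PCKGC, KHK and AGT1, and kidney lies above liver for MIOX.

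Gluconeogenesis was shared in most steps and higher in liver in some. Of 10 entries tested, 8 were shared, 4 were higher in liver, 0 in kidney and 6 were not called (6 higher in liver after median-ratio rescaling), and the median log2 difference was 0.52. G6PC1, the glucose 6-phosphatase catalytic subunit that releases free glucose, had 189 to 1357 TPM in liver and 20.9 to 120.3 TPM in kidney, without overlap, a log2 difference of 3.13 ± 0.188 (adjusted p = 1.03e-08). PCKGM, the mitochondrial carboxykinase, was 2.40 higher in liver, the glucose exporter GTR2 4.06, and PYC (pyruvate carboxylase) 1.15, the last not called after quantile normalization (0.84). F16P1, fructose 1,6-bisphosphatase, averaged 857 TPM in liver and 569.7 in kidney, a log2 difference of 0.68 ± 0.255 that was called only after median-ratio rescaling (1.31).

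Fructose and polyol enzymes had calls in both directions. Of 12 entries, 8 were shared, 3 were higher in liver and 4 in kidney (6 and 3 after median-ratio rescaling), with a median log2 difference of 0.17. Over all entries 10.3% were higher in liver and 29.9% in kidney, so the kidney count is near the general share. DHSO, sorbitol dehydrogenase, had 609.5 to 2091 TPM in liver and 63.9 to 397 TPM in kidney, and GLCTK, glycerate kinase, had 131 to 248 and 11.3 to 48.5 TPM, so both were separated in favour of liver, by 3.18 and 2.83. MIOX, which opens the ring of myo-inositol and is known as a renal enzyme, had 239 to 791 TPM in kidney and 3.02 to 30.1 TPM in liver, a log2 difference of -4.99 ± 0.306 (adjusted p = 1.29e-08). The fructose transporter GTR5 had 7.29 to 38.1 TPM in kidney and at most 0.0368 TPM in liver, and ALDR, aldose reductase, was -2.08 apart in favour of kidney. AK1A1, an aldehyde reductase, averaged 186 and 524 TPM, a call in favour of kidney that was lost after median-ratio rescaling (-0.80).

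Glycolysis leaned to the kidney. Of 19 entries, 1 was higher in liver, 9 in kidney and 9 were not called (3 and 6 after median-ratio rescaling), and the median was -0.96. The liver entry was KPYR, the pyruvate kinase of liver and red cells, with 20.1 to 109 TPM against 1.06 to 4.75 TPM in kidney. KPYM, the other pyruvate kinase gene, had 86.1 to 212 TPM in kidney and 3.02 to 18.6 TPM in liver, so neither form overlapped and their log2 differences were of like size, 3.81 ± 0.195 and -3.80 ± 0.251. HXK1 and HXK3, high-affinity hexokinases, had log2 differences of -2.98 and -2.23. HXK4, glucokinase, the low-affinity hexokinase of hepatocytes, ranged from 2.83 to 208 TPM among livers and from 4.87 to 17.7 TPM among kidneys. Its log2 difference of 1.25 ± 0.616 was not called (adjusted p = 0.0877), though it was after either rescaling and without S0349 or S0385 (1.66 and 1.62). LDHB, the lactate dehydrogenase that favours lactate oxidation, had 305 to 1307 TPM in kidney and 18.4 to 659 TPM in liver, whereas LDHA did not differ by 2-fold (interval -0.68 to 0.32).

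Glycogen genes were mostly higher in liver, 7 of 11 entries against 3 in kidney, with a median log2 difference of 2.14. GYS2, the liver glycogen synthase, had 188 to 409.6 TPM in liver and 0.517 to 2.35 TPM in kidney, a log2 difference of 7.09 ± 0.188 (adjusted p = 3.64e-12), while the muscle-type GYS1 was not called (0.38). Among phosphorylases, which release glucose units, PYGL had 57.5 to 156 TPM in liver and 11.5 to 22.3 TPM in kidney, and the brain-type PYGB had 16.7 to 38.6 TPM in kidney and 0.822 to 3.46 TPM in liver. The primer protein GLYG, glycogenin, was also higher in kidney (log2 difference -3.11). GCKR, the regulator of glucokinase, was shared by both organs and 2.95 higher in liver.

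Of 9 urea cycle entries, 7 were higher in liver, 0 in kidney and 2 were not called, with a median log2 difference of 2.52. CPSM (carbamoyl phosphate synthase) and OTC (ornithine carbamoyltransferase), the mitochondrial entry steps, had 143.5 to 1613 and 24.6 to 223 TPM in liver and at most 0.365 and 0.168 TPM in kidney. ASSY and ARLY (argininosuccinate lyase), the cytosolic steps that make arginine from citrulline, were instead shared: ARLY had 247 to 686 TPM in liver and 101 to 249.7 TPM in kidney. The log2 difference was 8.85 ± 0.349 for CPSM and 1.22 ± 0.156 for ARLY, and the latter was not called after quantile normalization (0.87). ARGI1, the cytosolic arginase, had 308 to 2559 TPM in liver and at most 1.002 TPM in kidney. ARGI2, the mitochondrial arginase, stayed inside 2-fold (interval -0.84 to -0.12), with 8.26 to 145 TPM in liver and 15.04 to 229 TPM in kidney.

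Aromatic amino acid breakdown was mostly higher in liver, 9 of 16 entries against 2 in kidney (12 and 2 after median-ratio rescaling), with a median of 1.46, and 7 were shared. PH4H, phenylalanine hydroxylase, had 369.6 to 3876 TPM in liver and 42.8 to 296 TPM in kidney, a log2 difference of 3.36 ± 0.261 (adjusted p = 1.27e-07). HPPD, which makes homogentisate from the tyrosine product, and HGD, which then opens its ring, were shared and 2.58 and 2.89 higher in liver. ATTY (tyrosine aminotransferase) and T23O (tryptophan dioxygenase) open the tyrosine and tryptophan routes. They had at most 0.788 and 6.91 TPM in kidney, against at least 167 and 382 TPM in liver. The kidney-high pair was AADAT and ACMSD, which turns an intermediate away from NAD synthesis. ACMSD had 36.7 to 193 TPM in kidney and 0.36 to 109 TPM in liver, where the ranges overlapped.

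Glycine, serine and one-carbon enzymes were the group with the most liver calls among the amino acid lists: 16 of 20 were higher in liver, 0 in kidney, 10 were shared, and the median log2 difference was 2.20. GNMT, the glycine methyltransferase that disposes of excess methyl groups, had 623 to 2338 TPM in liver and 22.2 to 94.0 TPM in kidney. BHMT1, which remethylates homocysteine with betaine, was shared, with 383 to 2643 TPM in liver and 11.7 to 672 TPM in kidney, and 3.26 higher in liver. SDHL (serine dehydratase) and HUTU (urocanase, of histidine breakdown) had at most 0.161 and 0.581 TPM in kidney and at least 38.2 and 175 TPM in liver. METK1, the liver form of methionine adenosyltransferase, had 378 to 1621 TPM in liver and at most 1.27 TPM in kidney, while METK2 stayed inside 2-fold (interval -0.66 to 0.16).

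Creatine synthesis, which textbooks divide between kidney and liver, showed GATM, the first enzyme, at 43.4 to 301 TPM in kidney and 77.4 to 732 TPM in liver. GATM was called higher in liver (1.21 ± 0.381, adjusted p = 0.0125), in 7 of 9 animals, and not without S0276 (0.90) or in the ET-type animals alone (adjusted p = 0.125). GAMT, the methyltransferase that finishes creatine, had 726 to 1591 TPM in liver and 13.1 to 67.2 TPM in kidney, without overlap. Of the TPM of both enzymes, GATM made up 76.4% in kidney and 18.2% in liver.

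Methionine and cysteine enzymes were higher in liver in 5 of 10 entries and in kidney in 1 (7 and 0 after median-ratio rescaling), with a median of 1.07. CBS and CGL, which turn homocysteine into cysteine, were shared, with 113 to 476 and 176 to 1611 TPM in liver and 12.8 to 46.0 and 40.2 to 248 TPM in kidney. CDO1, which oxidizes cysteine on the way to taurine, had 282 to 1674 TPM in liver and 1.38 to 50.8 TPM in kidney, a log2 difference of 5.36 ± 0.384 (adjusted p = 5.9e-08).

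Other amino acid routes were divided. Of 22 entries for branched-chain amino acids, lysine and proline, 13 were higher in liver and 4 in kidney (17 and 3 after median-ratio rescaling), with a median of 1.16. The kidney entries included BCAT2, the mitochondrial branched-chain aminotransferase, with 17.1 to 89.2 TPM in kidney and 2.88 to 10.8 TPM in liver, while ODBA, a subunit of the dehydrogenase that acts next, was 1.75 higher in liver. HYPDH, which oxidizes hydroxyproline on the way to glyoxylate, was shared and averaged 232 TPM in liver and 439 in kidney, a log2 difference of -0.91 ± 0.185 that was not called, though it was after quantile normalization (-1.31).

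Glutamine and ammonia enzymes included different forms in the 2 organs. Of 11 entries, 4 were higher in liver and 4 in kidney, beside 10.3% and 29.9% of all entries, with a median log2 difference of -0.34. GLSL, the liver glutaminase, had 27.3 to 134 TPM in liver and 0.916 to 4.42 TPM in kidney. GLSK, the kidney glutaminase that feeds renal ammonia, had 21.7 to 46.4 TPM in kidney and 1.30 to 4.29 TPM in liver. Neither overlapped, and the log2 differences were 4.46 ± 0.196 and -3.21 ± 0.204 (adjusted p = 4.79e-10 and 1.84e-08). GLNA, glutamine synthetase, was higher in kidney, with 117.5 to 836 TPM against 5.44 to 142 TPM in liver, and DHE3, the mitochondrial glutamate dehydrogenase, was shared and 1.24 higher in liver, not called after quantile normalization (0.76). ALAT2, the mitochondrial alanine aminotransferase, had 40.5 to 278 TPM in every kidney, while the livers of S0377 and S0385 had 216.2 and 438 TPM and the other 7 livers had 0.192 to 8.92 TPM. Its call in favour of kidney (-3.93 ± 0.771, adjusted p = 0.000529) was lost in the L-type animals alone (-2.67, adjusted p = 0.0511).

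Fat oxidation and ketone genes were higher in liver or not called, with 2 exceptions. Of 21 entries, 9 were higher in liver, 2 in kidney and 10 were not called (14 and 2 after median-ratio rescaling), with a median of 0.87, and 0 were shared. CPT1A, which brings long fatty acids to mitochondria, did not differ by 2-fold (interval -0.90 to 0.36), but CPT1B, its muscle-type partner, had 7.31 to 33.3 TPM in kidney and 0.796 to 5.37 TPM in liver. SCOT1, which uses ketones, had 10.4 to 98.7 TPM in kidney and 0.17 to 1.35 TPM in liver, a log2 difference of -4.39 ± 0.301 (adjusted p = 3.89e-08). BDH, which makes and uses 3-hydroxybutyrate, ran the other way, with 33.8 to 393 TPM in liver and 1.93 to 25.2 TPM in kidney. The cytosolic fatty acid carriers exchanged: FABPL had 254 to 4005 TPM in liver and at most 1.24 TPM in kidney, and FABPH had 58.8 to 352 TPM in kidney and 2.06 to 18.6 TPM in liver.

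Peroxisomal enzymes were higher in liver in 8 of 14 cases and in kidney in 1 (10 and 1 after median-ratio rescaling), with a median of 1.77. The pair HAOX1 and HAOX2, peroxisomal oxidases of short and longer 2-hydroxy acids, were both shared by the 2 organs and went opposite ways. HAOX1 had 162 to 451 TPM in liver and 28.4 to 143 TPM in kidney, without overlap, and HAOX2 had 228 to 747.5 TPM in kidney and 64.3 to 264 TPM in liver. Their log2 differences were 2.38 ± 0.281 and -1.63 ± 0.246 (adjusted p = 6.8e-06 and 5.98e-05). HAOX2 was not called when S0235 was kept (-0.87, adjusted p = 0.26).

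Lipid synthesis and particle assembly were higher in liver in 12 of 16 entries and in kidney in 2, with a median of 2.38. APOE had 12039 to 24092 TPM in liver and 14.2 to 189 TPM in kidney. The exceptions were FABPH and ACACB, the acetyl-CoA carboxylase that holds back fat oxidation, with 12.1 to 71.4 TPM in kidney and 0.457 to 8.78 TPM in liver. Of 10 bile acid entries, 8 were higher in liver and 0 in kidney, with a median of 4.96: the first enzyme CP7A1 had 7.32 to 251 TPM in liver, and the uptake carrier NTCP and the canalicular export pump ABCBB had at least 56.2 and 98.6 TPM there, while each of the 3 stayed under 0.162 TPM in kidney. CP8B1, the 12-alpha-hydroxylase, was low in both organs and not called on deposited TPM (0.41), though it was after quantile normalization (1.02).

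Of 17 entries listed with the cytochromes P450 and flavin oxidases, 12 were higher in liver, 1 in kidney and 4 were not called, with a median of 1.45. The list also held other enzymes: NCPR, HYEP and ADH1A, higher in liver, and HYES and AL1A1, not called. FMO1, a flavin oxidase of drugs, averaged 3288 TPM in liver and 510.1 in kidney and made up 92.2% and 85.0% of its family. CP3AT, of the 3A subfamily, had 2156 to 8040 TPM in liver and 2.93 to 128 TPM in kidney. CP2E1 and CP1A2 varied widely among livers, from 0.46 to 2439 and from 2.91 to 1495 TPM, and CP2E1 was listed at 0 in every kidney. The kidney entry was CP24A, which inactivates vitamin D, with 6.23 to 26.4 TPM in kidney and at most 0.25 TPM in liver.

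Conjugation genes were counted in 1 list with brush border peptidases, and this list went both ways. Of 22 entries, 10 were higher in liver and 8 in kidney, beside 10.3% and 29.9% of all entries. The kidney entries included GGT1, DPEP1, MEP1B, NEP and GPX3, which are not conjugating enzymes, beside ACS2A, GSTP1 and ST1A1. Of these entries 7 were shared, and the median was 0.05. GLYAT, which joins glycine to benzoate and other acids, was shared, with 821 to 4153 TPM in liver and 271 to 453 TPM in kidney, and 2.63 higher in liver. ACS2A, which activates the same acids, was shared in the other direction, with averages of 81.1 and 379 TPM and a log2 difference of -2.30 ± 0.205 (adjusted p = 4.71e-07). GSTA1, an alpha-class glutathione transferase, averaged 1729 TPM in liver and 113 in kidney, and the pi-class GSTP1 37.8 and 498. GGT1 and DPEP1, brush border enzymes that take glutathione conjugates apart, had 84.4 to 316 and 84.8 to 776 TPM in kidney and at most 6.80 and 0.0541 TPM in liver.

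Organic ion carriers split evenly, 9 higher in liver and 9 in kidney of 19, and both counts were the same after median-ratio rescaling; the median was -0.34. In the organic anion family, S22A7 had 138.5 to 858 TPM in liver and at most 0.846 TPM in kidney, while S22A8 and S22A6 had 54.6 to 288 and 3.55 to 102 TPM in kidney and at most 0.158 and 0.014 TPM in liver. Of the organic cation carriers, S22A1 was present in both organs and higher in liver (1.85 ± 0.361, adjusted p = 0.000495; not called in the ET-type animals alone, 0.92), while S22A2 was listed at 0 in every liver and had 37.6 to 302 TPM in kidney. Of the exporters that act with them, S47A1 had 48.8 to 138 TPM in kidney and 0.222 to 1.35 TPM in liver, and S47A2 39.5 to 149.6 and 8.49 to 38.3 TPM. ABCG2, an efflux pump of both organs, stayed inside 2-fold (interval -0.89 to 0.21).

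Nutrient and anion transporters were mixed: of 20 entries, 6 were higher in liver and 8 in kidney (9 and 8 after median-ratio rescaling), 7 were shared, and the median was 0.03. The sodium-driven carriers S13A1 (sulfate) and S13A3 (dicarboxylates) had 9.50 to 72.7 and 21.1 to 92.0 TPM in kidney and at most 0.276 and 3.42 TPM in liver. S26A1, a sulfate exchanger of both organs, was shared, with 47.8 to 165 TPM in liver and 13.8 to 65.2 TPM in kidney, and 1.34 higher in liver. S15A2, a peptide carrier, was shared and not called (-0.88, or -1.01 and called without S0326), with 11.8 to 25.9 TPM in liver and 23.4 to 61.6 TPM in kidney.

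Water channels and ion pumps were mostly higher in kidney (5 of 7 water channels, with 1 higher in liver). AQP9, which passes glycerol into hepatocytes, had 6.52 to 333 TPM in liver and at most 0.500 TPM in kidney, whereas AQP1, AQP2, AQP3, AQP6 and AQP7 were higher in kidney, with log2 differences of -8.79 to -3.73. Of 13 pump entries, 10 were higher in kidney (9 after median-ratio rescaling) and 0 in liver, with a median of -2.40. The sodium pump subunit AT1A1 had 206 to 1170 TPM in kidney and 23.1 to 85.4 TPM in liver. VATB1, the proton pump subunit of acid-secreting cells, had 61.3 to 241.7 TPM in kidney and at most 0.785 TPM in liver, while the general form VATB2 stayed inside 2-fold (interval -0.67 to 0.21).

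The 2 epithelia differed in their junction and keratin genes: of 17 entries, 7 were higher in liver and 9 in kidney (8 and 8 after median-ratio rescaling). The keratins K1C18 and K2C8 were among the liver entries, and K1C19 and K2C7 among the kidney entries. CAD16, kidney-specific cadherin, had 173 to 821 TPM in kidney and 0.407 to 5.37 TPM in liver, while CADH1 and CADH2 were 1.25 and 2.28 higher in liver. Of the claudins, which set what passes between cells, CLD1 and CLD14 were higher in liver (2.43 and 5.61) and CLD2 and CLD10 in kidney (-3.25 and -2.85). CLD2 had 48.6 to 218 TPM in kidney and 1.39 to 22.9 TPM in liver and was shared by both organs. CLD10 was not called when S0235 was kept (-1.99, adjusted p = 0.0523).

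Transcription factors showed a shared core with organ-specific partners. Of 30 entries, 15 were higher in liver, 12 in kidney and 3 were not called, 7 were shared, and the median was 1.05. HNF4A, a nuclear receptor of hepatocyte and proximal tubule genes, had 110.2 to 179 TPM in liver and 44.0 to 129.9 TPM in kidney, inside 2-fold on deposited TPM (0.57) but called higher in liver after median-ratio rescaling (1.20). FOXA1, FOXA2 and FOXA3, forkhead factors of the liver, were 3.42, 4.03 and 4.93 higher there, and PAX8 and LHX1, factors of the developing and adult nephron, had log2 differences of -4.62 and -3.75. NR1H4, the bile acid receptor, and NR1I2, a drug sensor, were shared and 2.27 and 1.52 higher in liver.

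HOX genes, which record position along the body axis, were a kidney group: 25 of 25 entries tested were higher there, 24 after median-ratio rescaling, with a median log2 difference of -3.81. Their summed level was 513 to 1104 TPM in kidney and 7.10 to 12.3 TPM in liver, and 5 of the list's entries were at 0 in all livers. HXD9 had 59.2 to 156 TPM in kidney and at most 0.268 TPM in liver, HXA9 37.4 to 60.4 and at most 0.126 TPM, and HXA10 21.2 to 51.0 TPM in kidney and 0 in every liver.

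Secreted regulators fell on both sides. Of 17 entries, 9 were higher in liver and 6 in kidney, beside 10.3% and 29.9% of all entries, with a median of 1.09. ANGT, angiotensinogen, had 300.3 to 769 TPM in liver and 0.727 to 3.97 TPM in kidney, and RENI, renin, which cleaves it, 2.30 to 25.9 TPM in kidney and at most 0.130 TPM in liver. HEPC (hepcidin, the iron hormone) had 109.6 to 784 TPM in liver and at most 0.281 TPM in kidney. KLOT (klotho, the co-receptor for a phosphate hormone) and EGF had 11.9 to 64.8 and 9.69 to 74.3 TPM in kidney and at most 0.494 and 0.891 TPM in liver.

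**Figure D3:**
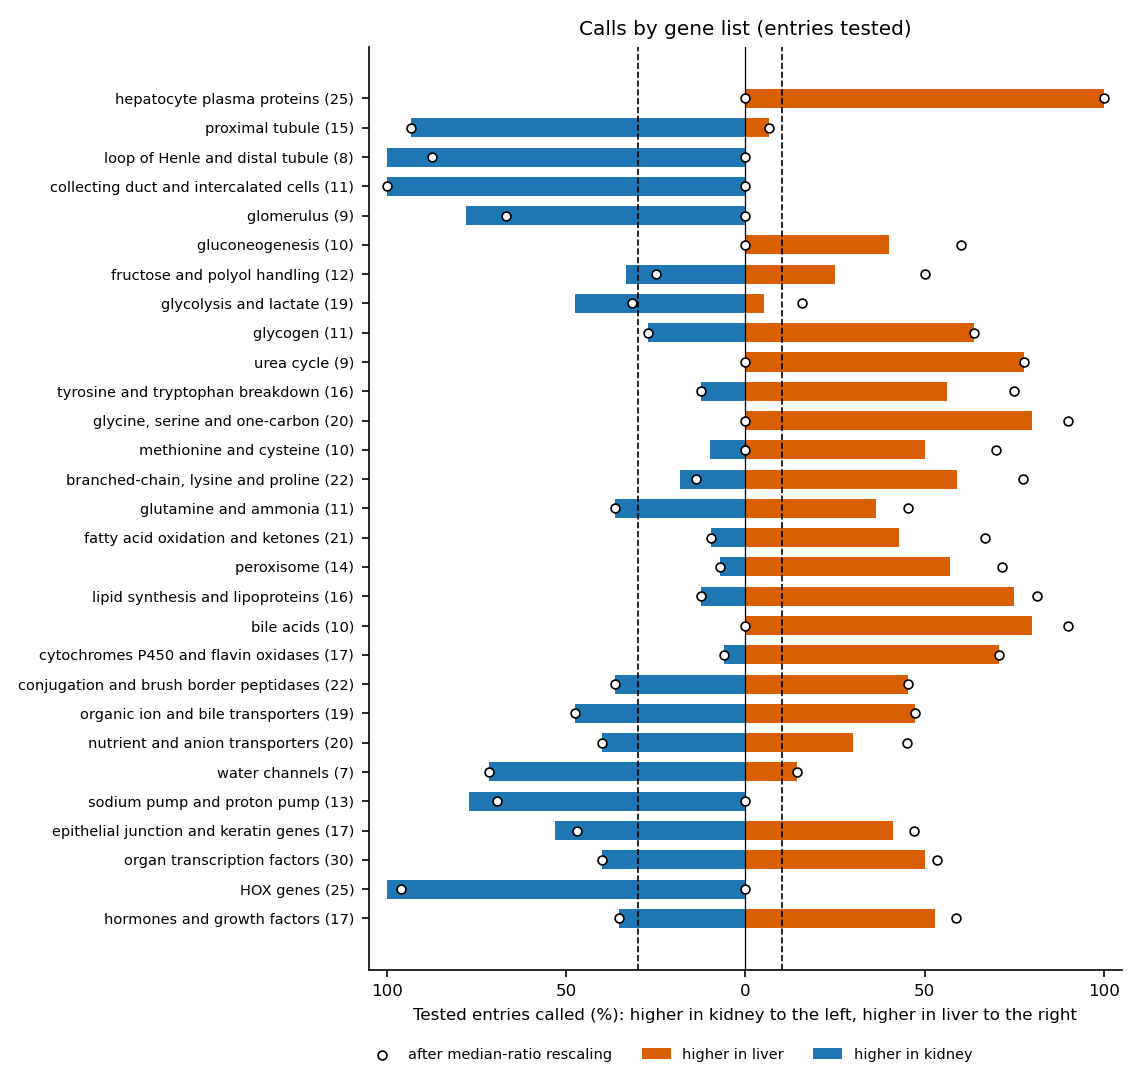
For 29 gene lists (rows), the percentage of tested entries called higher in liver (orange, to the right) and higher in kidney (blue, to the left) on deposited TPM, with open markers at the percentages after median-ratio rescaling and the number tested beside each name. Dashed lines mark the shares over all entries, 10.3% and 29.9%. Plasma proteins reach 25 of 25 on the liver side and HOX genes 25 of 25 on the kidney side, while gluconeogenesis has 0 kidney calls.

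Across 33 groups of related entries with at least 2 matched members, here called families and forms, the leading form, the one with the highest mean share of the family's TPM, differed between the organs in 22 and was the same in 11. It differed in all 9 animals in 15 families. One of the 33 pairs the successive enzymes of creatine synthesis, and another, FOXA, summed to 0.508 TPM in kidney. Without both, the leading form differed in 20 of 31 families, and in all 9 animals in 14. These counts hold for the listed forms only, since families left out some measured relatives. The families were chosen with earlier results of these data known, so the counts give no share for gene families in general. AQP11, outside the aquaporin family, had 72.2 to 243.5 TPM in liver, beside 6.52 to 333 TPM for AQP9. In kidney it had 109.4 to 411.8 TPM, beside 160.9 to 771.7 TPM for AQP2. In S0242 AQP11 lay above AQP9 in liver (155.7 and 140.2 TPM) and above AQP2 in kidney (411.8 and 160.9 TPM). The aquaporins thus count among the 15 only without AQP11. CLD4, outside the claudin family, had 39.9 to 174.9 TPM in liver, beside 33.1 to 122 TPM for CLD1. CLD7, also outside, had 28.4 to 159.5 TPM in kidney, beside 48.6 to 218 TPM for CLD2. In 11 families 1 form was called higher in liver and another higher in kidney, as for glutaminase, pyruvate kinase and the organic anion carriers. GLSL made up 95.3% ± 3.48 (SD, n = 9) of glutaminase in liver and 5.71% ± 1.69 in kidney, KPYR 83.6% ± 6.78 and 1.97% ± 0.952 of pyruvate kinase, and HAOX1 66.5% ± 10.9 and 11.96% ± 5.71 of hydroxyacid oxidase. In other families the share moved while 1 form was not called. ARGI1 was 95.6% of arginase in liver and 1.16% in kidney, METK1 91.2% and 0.780% of its family, and GYS2 92.1% and 6.17% of glycogen synthase. There ARGI2, METK2 and GYS1 were not called between the organs. Families that kept 1 leading form included fructose bisphosphatase (F16P1 above 99.9% in the mean of both organs), carnitine palmitoyltransferase 1 (CPT1A 94.9% and 81.5%) and HNF4 (HNF4A 97.0% and 92.2%). FOXA3 held 55.7% of FOXA in liver, and the kidney level was too low to name a leading form. The cytosolic ALAT1 held 53.0% ± 40.1 (SD, n = 9) of alanine aminotransferase in liver, from 0.613% to 97.2%, and was above ALAT2 in 5 of 9 livers and 0 of 9 kidneys, where it held 5.16%. AGT2 held 58.0% and 22.1% of the alanine-glyoxylate pair, and PYGL 97.2% and 35.9% of glycogen phosphorylase. HXK4 held 82.5% and 30.7% of the sum of HXK4, HXK1 and HXK2. That sum leaves out HXK3, which had 1.56 to 9.39 TPM in liver and 12.2 to 36.5 TPM in kidney. The share of HXK4 among all hexokinase entries is therefore lower. Among transporters the leading form passed from VATB2 (97.7% in liver) to VATB1 (80.3% in kidney). GTR2 made up 89.0% of the glucose carriers in liver, while in kidney GTR1 (45.8%, not called between the organs) and GTR5 (42.9%, called higher in kidney) were close, with GTR5 above GTR1 in 5 of 9 kidneys. S47A2 made up 94.9% of the MATE exporters in liver and 46.5% in kidney, where it was above S47A1 in 4 of 9 animals. LDHB, PCKGC, the liver-type phosphofructokinase PFKAL, the ornithine carrier ORNT1, GLYAT, FMO1 and the sodium pump beta subunit AT1B1 led in both organs. PCKGC held 65.9% of its family in liver and 91.0% in kidney. Shares within a family do not change with a single factor per library, as in median-ratio rescaling, and were not recomputed after quantile normalization.

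**Figure D4:**
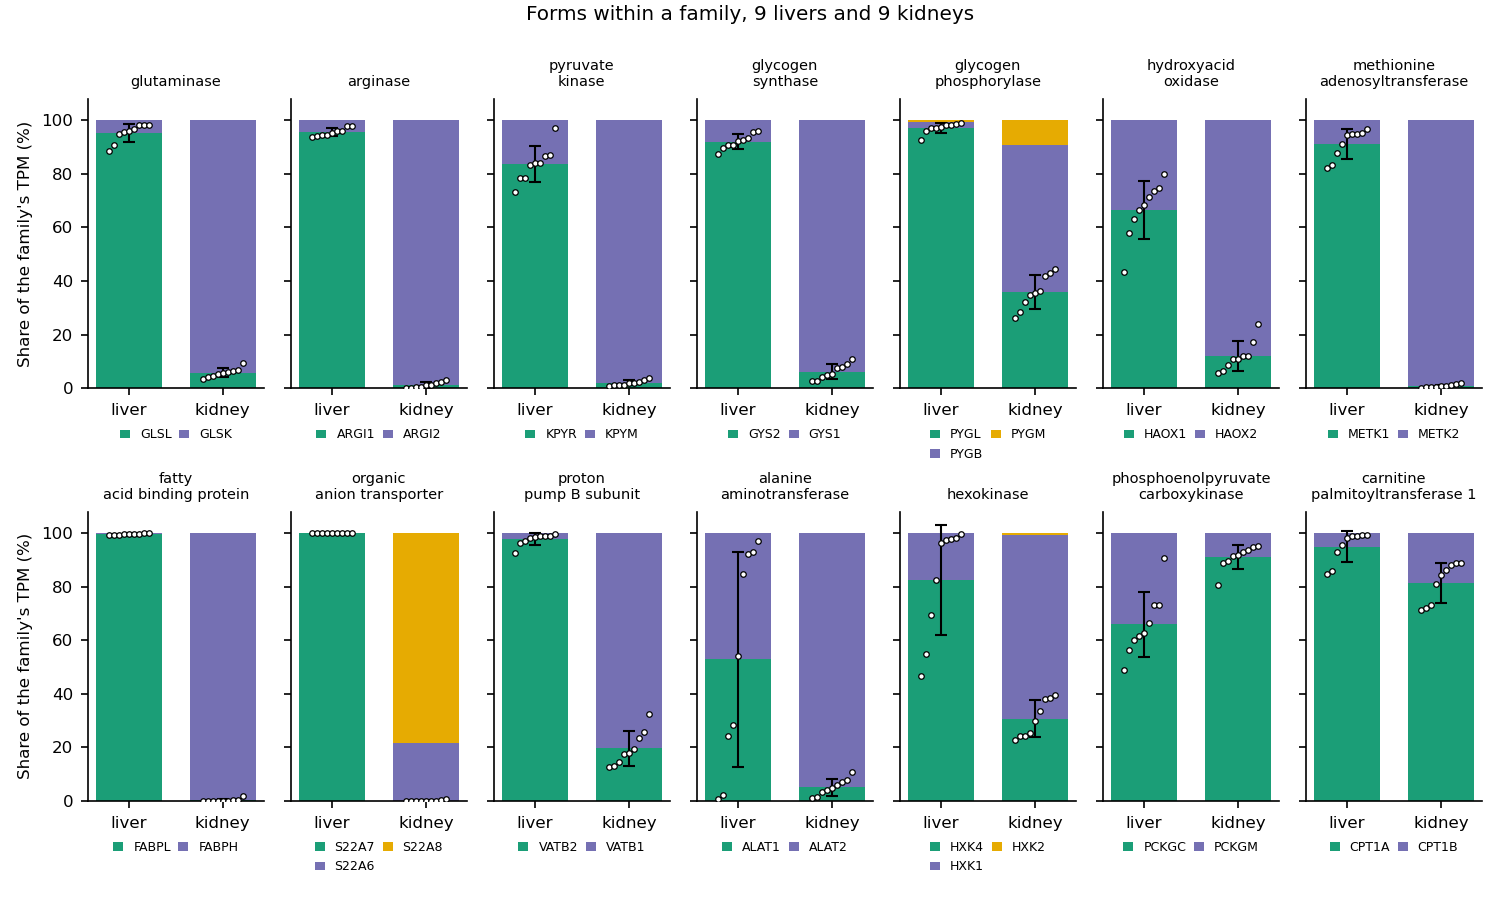
Share of a family's summed TPM held by each form in 9 livers and 9 kidneys, for 14 families. The hexokinase panel leaves out HXK3. Bars are means, coloured by form in the order named, error bars are SDs of the leading liver form, and dots, ordered by value, are that form in single animals. The leading form changes between organs in glutaminase, arginase and pyruvate kinase and stays the same in phosphoenolpyruvate carboxykinase and carnitine palmitoyltransferase 1.

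The organ difference was next compared between the pig types. No entry differed between ET-type and L-type animals in its liver-to-kidney difference (0 of 12505, limma interaction, smallest adjusted p = 0.4905), and 680 entries (5.44%) had an unadjusted p under 0.05. Among the 5 with the smallest p, CRIM1, a membrane protein that binds growth factors of the BMP family, had a mean log2 difference of 1.93 in ET-type and -1.37 in L-type animals, and GPX3 was -7.34 and -4.70. CRIM1 was not called over all 9 animals (0.10), was called higher in liver in the ET-type animals alone (adjusted p = 0.00672) and higher in kidney in the L-type animals alone (adjusted p = 0.00952), and was also called higher in kidney when transcripts matching under 100 residues were not summed (-1.02, adjusted p = 0.0193). The other 3 were ANGL4, an inhibitor of lipoprotein lipase (4.10 and 1.68), the sugar transporter SC5A9 (2.16 and 0.45) and PLAT5 (5.79 and 3.74), each higher in liver over the 9 animals, SC5A9 not so in the L-type animals alone (adjusted p = 0.137). The 5 entries were chosen by their interaction p in these same animals, so the fits within either type are no separate support for a difference between types. With 4 and 5 animals, differences of this size were not separable from spread after correction over all entries.

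**Figure D5:**
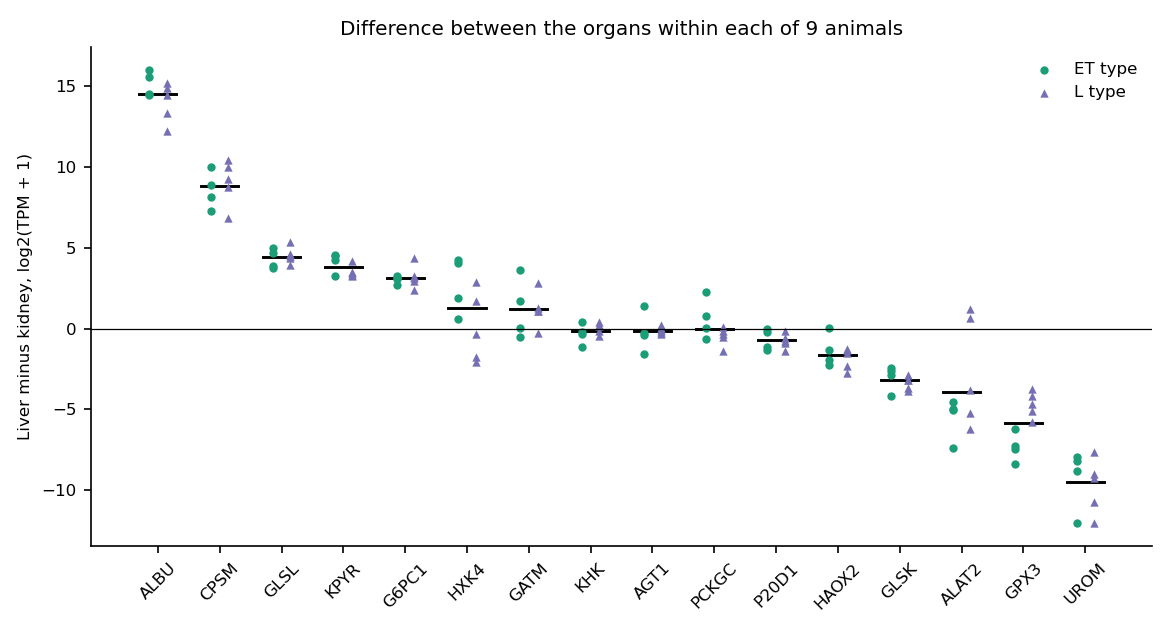
Log2(TPM + 1) difference between liver and kidney of each of 9 animals for 16 entries, with ET-type animals as circles and L-type animals as triangles and a black bar at the mean. Positive values are higher in liver. PCKGC, AGT1 and KHK scatter around 0, GLSL and GLSK lie fully on opposite sides, and ALAT2 has 2 L-type animals above 0.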

How the data were processed

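The deposited values are TPM per assembled transcript in 50 poly(A) RNA-seq libraries (10 animals, 5 tissues), and every library sums to 1000000. Per the submitters' processing notes, Trimmomatic 0.36, Salmon 1.10.0 and the Sscrofa11.1 build were used; how the transcripts were assembled is not given in the sources used here. Of 57085 transcripts, 63.9% carry a best Swiss-Prot match in the deposited annotation (median identity 91.7%). TPM were summed per entry (14532 entries), and unmatched transcripts stayed in the fits as single units but were not counted. Because TPM keeps no read counts, no count test, interval or floor was computed.

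Values were analysed as log2(TPM + 1) for units with a mean of at least 1 TPM, with limma 3.58.1 (empirical Bayes with trend) in R 4.3.3, the animal as block, and Benjamini-Hochberg adjustment over all 26430 units. Fold changes of low entries are understated on this scale. A call needed an adjusted p under 0.05 and an absolute log2 difference of at least 1, and levels were taken as within 2-fold where the 95% interval of the difference lay inside -1 to 1. The largest of the 6 one-sided p-values of liver and kidney against heart, lung and spleen gave the shared entries. The fits were tested on simulated data.

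Pairs come from the animal code in the labels, so both organs share an animal. After subtraction of group means, livers and kidneys of the same animal correlated with a median r of 0.211 across units (-0.0691 to 0.434), and 8 of 9 livers correlated best with their own kidney. The labels name 1 sample per animal and organ, so animals are the replicates.

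Alternatives were other pseudocounts, filters, scalings, minimum differences and priors, no block, each type alone, each animal left out, S0235 kept, and transcripts tested singly; not summing transcripts that match under 100 residues (30.7% of matched ones) and leaving out 2 isoform families were added after seeing the data. The text names the 10 entries with the largest difference in each direction, the 10 most abundant shared entries, the 10 most abundant within 2-fold, the 5 smallest interaction p-values, leading forms of isoform families, and 2 to 6 members of each list; some of these entries are not reported here. S0235, the lists, families and members were chosen with earlier results of these data known. Of 553 list entries, 498 were matched.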

Additional observations from a re-analysis of the deposited data

Results flagged for a closer look

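In 4 of the 178 entries checked, 1 animal stood apart from the other 8 in the log2 difference between liver and kidney. Chance flags about 1 in 20 such groups of values. APOE was 6.98 higher in liver in S0276 and at least 9.04 higher in the others. In S0326, AQP3 differed by -4.12, and the nearest other animal had -5.94, so this tubule entry was less far in favour of kidney there. G6PC1 was 4.36 higher in liver in S0384, beside at most 3.26 in the others. CP8B1 was 3.48 higher in liver in S0349, beside at most 1.16 in the others, and was not called over the 9 animals.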

How the results depend on the processing

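The counts of entries called, 5036 in all with 1293 higher in liver and 3743 in kidney, became 8436, 2001 and 6435 with no minimum difference, 2977, 810 and 2167 with a test against 2-fold (limma treat), and 9848, 3018 and 6830 for matched transcripts tested singly. Median-ratio rescaling gave 2198 and 2226 and quantile normalization 2139 and 2284 in the 2 directions. Leaving out 1 animal gave 4960 to 5321 calls (1213 to 1348 in liver, 3624 to 4013 in kidney), 286 to 305 shared entries, 56 to 72 of them within 2-fold, 21 to 22 families with different leading forms, and 0 interactions. Without the pairing by animal, 5021 entries were called, 295 were shared and 61 of these lay within 2-fold; of the named entries, only S12A3 and CP2CI lost their call. With S0235 kept, 27 shared entries lay within 2-fold, beside 66. The interaction had 0 calls under every setting run. CRIM1 was called higher in liver in the ET-type animals alone (1.93) and turned direction in the L-type animals alone (-1.37) and without matches under 100 residues (-1.02), from 0.10. Of 147 named entries that were called, 133 kept their call in every refit that tested them (scalings, filters, pseudocount, prior, block, types, left-out or added animals, short matches). Read depth is unknown and limits what low entries can show.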

Other observations

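The short-matching transcript behind S12A3 divided the animals in the same way in all 5 tissues. In S0309, S0355 and S0377 it had 6.97 to 8.09 TPM in kidney and at most 0.297 TPM in heart, liver, lung and spleen. In the other 6 animals it had 121 to 672.5 TPM in heart, 239.8 to 1078 TPM in kidney, 206 to 1749 TPM in liver, 373 to 838 TPM in lung and 34.7 to 201 TPM in spleen. The transcript that matches all 1021 residues of the carrier was present in the kidneys of all 9 animals.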
